A study of Mus musculus with 10 samples.

Results

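The genes described are the ligands and receptors of the interleukin 17 (IL-17) family, chosen by symbol: the ligand genes Il17a, Il17f, Il17b, Il17c and Il17d and the receptor genes Il17ra, Il17rc, Il17rb, Il17re and Il17rd. All 10 were measured, each by 1 probe set, among 22180 genes named by a single symbol. The samples were whole aortas of male mice on a C57BL/6 background, profiled on Affymetrix Mouse Gene 2.0 ST arrays, with 5 ApoE/IL-17 double knockout aortas and 5 ApoE knockout aortas. Both groups lack apolipoprotein E, which clears lipoprotein remnants, so that mice without it become hyperlipidemic. From week 8 both groups were given high fat food, which lasted 3 weeks, and the aortas were taken at 11 weeks of age. Only the double knockout also lacks IL-17, through a cross of IL-17-/- with ApoE-/- mice. The labels of the ApoE knockout arrays describe those mice beside wild type and caspase-1 deficient animals, which are not named for the double knockout arrays. The comparison asks what differs in the aorta when IL-17 is missing during early hyperlipidemia.

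IL-17A and IL-17F are dimeric cytokines made mainly by T helper 17 cells, gamma delta T cells and innate lymphoid cells. They signal through a complex of IL-17RA and IL-17RC on fibroblasts, smooth muscle, endothelium and epithelium, where the adaptor Act1 recruits TRAF proteins and turns on NF-kappaB, MAP kinases and C/EBP factors. IL-17RA is shared within the family: it pairs with IL-17RB to bind IL-25 and with IL-17RE to bind IL-17C.

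Il17a and Il17f lie side by side on chromosome 1, with 0 annotated genes between them in the RefSeq annotation of GRCm38.p6. Their upstream sequences are shown because they are the deleted gene and its neighbor, and Il17f is the ligand with the smallest p in the comparison. Each window holds the 250 bases before the RefSeq start site, in build GRCm38.p6 and read along the gene. The Il17a window is chr1:20730655-20730904 on the plus strand, and the Il17f window is chr1:20784271-20784520 on the minus strand. Capitals mark matches to 3 motifs searched on both strands.
Il17a: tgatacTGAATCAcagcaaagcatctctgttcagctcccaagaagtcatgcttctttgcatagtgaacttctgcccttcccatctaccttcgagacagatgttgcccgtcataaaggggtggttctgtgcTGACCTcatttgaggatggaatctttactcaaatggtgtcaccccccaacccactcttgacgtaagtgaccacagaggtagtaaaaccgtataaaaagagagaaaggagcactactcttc
Il17f: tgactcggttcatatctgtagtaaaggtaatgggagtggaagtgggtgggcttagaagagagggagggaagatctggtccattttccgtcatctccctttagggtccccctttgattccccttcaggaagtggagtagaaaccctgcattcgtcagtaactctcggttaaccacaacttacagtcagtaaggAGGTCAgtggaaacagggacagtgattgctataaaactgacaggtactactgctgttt
The motif AGGTCA, bound by ROR factors such as the T helper 17 regulator ROR gamma t, was matched once in each window, beginning at position -120 in Il17a and -58 in Il17f, counted back from the start site. In Il17a the match lies on the opposite strand and reads TGACCT. The AP-1 motif TGANTCA was matched once in Il17a and 0 times in Il17f, and the STAT motif TTCNNNGAA was matched in neither. No matches overlapped. Of 32851 RefSeq upstream windows of the same length, 14% held AGGTCA, 6.75% held TGANTCA and 7.02% held TTCNNNGAA. Upstream sequences were matched for 8 of the 10 genes, and among these AGGTCA was found only in Il17a and Il17f. These are matches of letters in the reference genome, not measured binding sites.

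The deposited values are log2 levels, and with 5 arrays a group precision is limited. No detection p-values were used, so background was set at 5.80. That is the 95th percentile of mean level among 1428 genes for odorant, vomeronasal and taste receptors, called chemosensory genes from here on. The aorta is not known to rely on these genes, but the background of any single probe set may differ from this level. The chemosensory genes were higher in the double knockout aortas, with array medians averaging 3.97 ± 0.21 in the double knockout and 3.65 ± 0.08 in the ApoE knockout (SD, n = 5 each; exact permutation p = 0.0079, adjusted p = 0.011 over 4 array measures, two-sided, the smallest p that 5 against 5 arrays can give). Every double knockout array lay above every ApoE knockout array in this measure, while upper quartiles over all probe sets averaged 7.63 in the double knockout and 7.59 in the ApoE knockout (exact permutation p = 0.079). Of the chemosensory genes, 29.8% were higher and 0.84% lower by limma. As a median, the change on the log2 scale came to 0.29 for them and 0.098 for all genes. All 9 smooth muscle markers lay above background, with mean levels of 11.26 to 11.34 in the double knockout and 10.78 to 11.33 in the ApoE knockout. The sources used here give no scan batches, so a batch that follows the groups and genotype cannot be told apart.

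Of the 10 genes, 7 had both group means above background: Il17b, Il17c, Il17d, Il17f, Il17ra, Il17rc and Il17rd. Il17a, Il17rb and Il17re had both means below it. Il17d, Il17ra, Il17rc and Il17rd were above 5.80 in each of the 10 arrays. They were also the 4 genes left above the 99th percentile of the chemosensory genes (6.71) and above the 95th percentile of 93 keratin-associated protein and beta-defensin genes (6.83). Il17b, Il17c and Il17f thus lay close to the background, and 4, 3 and 4 of the 5 ApoE knockout arrays, in that order, were above 5.80, against all 5 double knockout arrays for each.

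**Figure D1:**
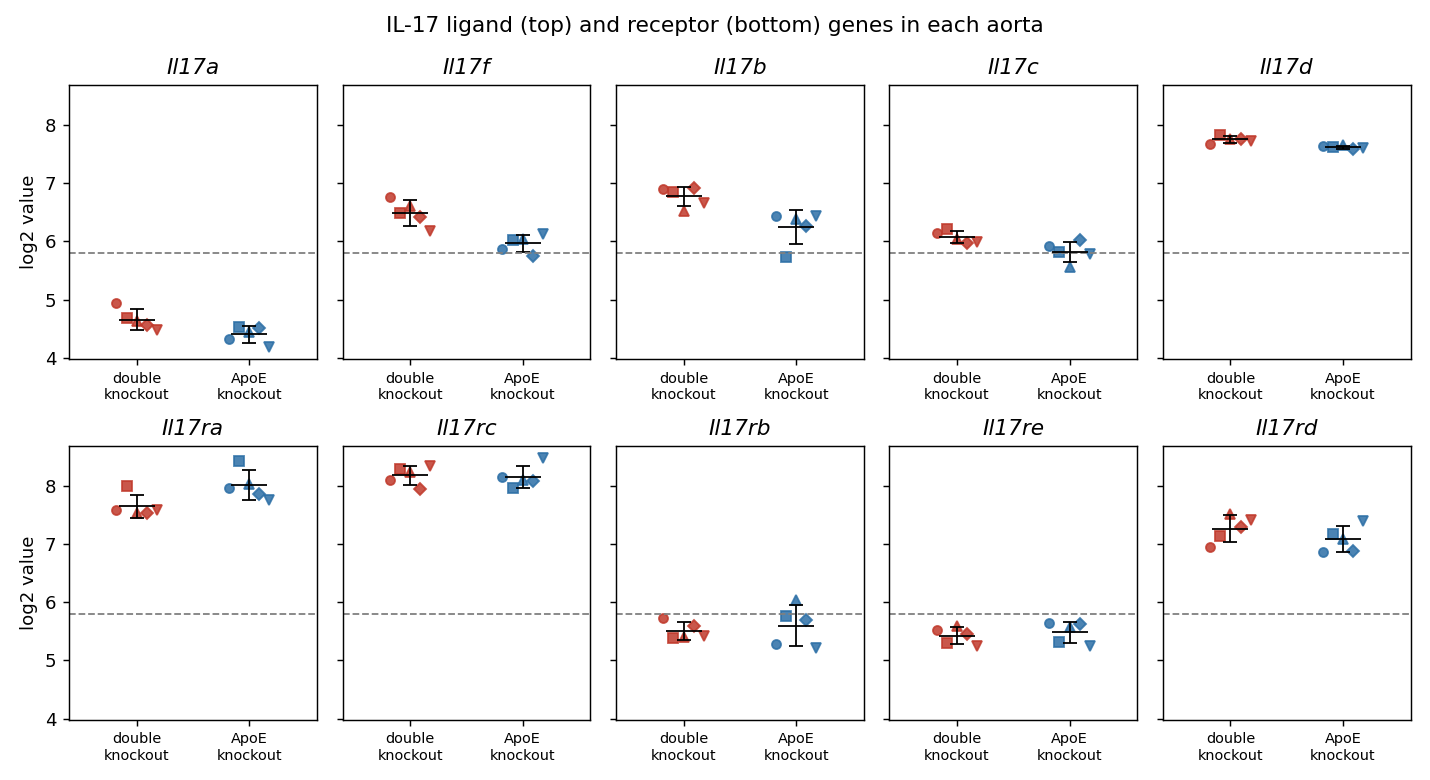
Log2 values of the 5 ligand genes (top row) and 5 receptor genes (bottom row) in each aorta, double knockout in red and ApoE knockout in blue, with marker shape for the replicate number, the mean and SD in black, and the background level of 5.80 as a dashed line. Il17b, Il17f and Il17d have groups that do not overlap, and Il17a, Il17rb and Il17re lie at or below the dashed line in all but 1 array.

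Of the 10 genes, 2 were higher in the double knockout aortas by limma with Benjamini-Hochberg adjustment over all genes (adjusted p under 0.05), Il17f and Il17b, beside 22.8% of all genes higher and 30.3% called in either direction. None was lower by this test, beside 7.53% of all genes. At an unadjusted p under 0.05, 5 were higher (the 5 ligands) and 1 lower (Il17ra). The shares of all genes at that threshold were not counted, and cannot be below the 22.8% higher and 7.53% lower after adjustment. The groups did not overlap for 3 of the 10, Il17b, Il17d and Il17f, all 3 higher in the double knockout, beside 20.4% of all genes in either direction and 15.6% in that one. A share of 2 in 10 called is near the background and is not a result about the family. All 5 ligands had positive changes, from 0.13 to 0.52 (median 0.25), and the receptors ran from -0.36 to 0.18 (median -0.056). The smallest ligand change was 0.13 for Il17d, beside medians of 0.098 over all genes and 0.0023 over genes with both means above background. After quantile normalization the medians were 0.10 for the ligands, -0.29 for the receptors and -0.018 for all genes, and 0 ligands passed.

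**Figure D2:**
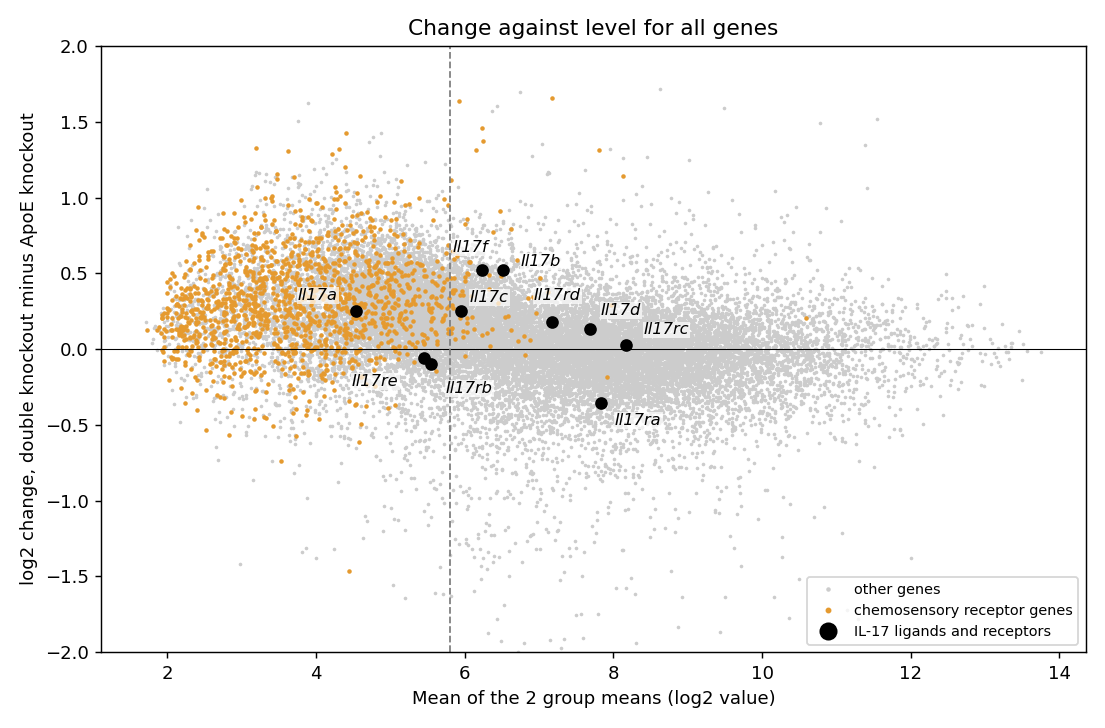
Log2 change, double knockout minus ApoE knockout, against mean level for all genes (gray), chemosensory genes (orange) and the IL-17 ligands and receptors (black, labeled), with background as a dashed line. The vertical axis stops at 2 in each direction, which leaves out 26 genes. Most orange points lie above 0, where the ligands also lie.

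The targeted gene, Il17a, encodes IL-17A. Its log2 values were 4.94, 4.68, 4.63, 4.57 and 4.48 in double knockout replicates 1 to 5, against 4.33, 4.54, 4.45, 4.51 and 4.20 in ApoE knockout replicates 1 to 5. All 10 values were below background, and the groups overlapped. The mean was 4.66 ± 0.17 in the double knockout and 4.41 ± 0.14 in the ApoE knockout (SD, n = 5 each), and the change of 0.25 (SE 0.10, limma adjusted p = 0.073) turned to -0.019 after quantile normalization and to -0.064 when arrays were centred on the chemosensory genes. A lower level in the double knockout was not seen. The sources used here do not say where its probes lie relative to the deletion, so this gene does not check the genotype labels.

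Il17f encodes IL-17F, which forms homodimers and heterodimers with IL-17A. Its values were 6.76, 6.49, 6.60, 6.41 and 6.17 in the double knockout replicates, against 5.88, 6.03, 6.05, 5.75 and 6.13 in the ApoE knockout replicates. Every double knockout aorta was above every ApoE knockout aorta, though double knockout replicate 5 and ApoE knockout replicate 5 lay close together. Il17f rose 1.44-fold (6.49 ± 0.22 against 5.97 ± 0.15, SD, n = 5 each; log2 change 0.52, SE 0.11, limma adjusted p = 0.0064). It passed with any 1 array left out, with changes of 0.45 to 0.60. The call was lost after quantile normalization (0.35, adjusted p = 0.056) and when arrays were centred on the chemosensory genes (0.20, adjusted p = 0.34), within a range of adjusted p from 0.0060 to 0.34 over 13 alternatives.

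Il17b encodes IL-17B, a ligand of IL-17RB, and lies on chromosome 18. It had 6.89, 6.85, 6.53, 6.92 and 6.67 in the double knockout replicates, against 6.43, 5.73, 6.38, 6.27 and 6.44 in the ApoE knockout replicates. The groups did not overlap, and ApoE knockout replicate 2 stood below all other arrays. Il17b rose 1.44-fold (6.77 ± 0.17 against 6.25 ± 0.30, SD, n = 5 each; log2 change 0.52, SE 0.14, limma adjusted p = 0.016), and it also passed without that array (0.39, limma adjusted p = 0.017). The call was lost after quantile normalization (0.38, adjusted p = 0.076) and when arrays were centred on their median over all probe sets (0.32, adjusted p = 0.10) or on the chemosensory genes (0.20, adjusted p = 0.40), within 0.014 to 0.40 over 13 alternatives.

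Il17c encodes IL-17C, known mainly as a product of epithelial cells. Its values were 6.14, 6.21, 6.04, 5.97 and 5.98 in the double knockout replicates, against 5.92, 5.82, 5.56, 6.02 and 5.79 in the ApoE knockout replicates. Only ApoE knockout replicate 4 reached into the double knockout range. The change of 0.25 (SE 0.09, limma adjusted p = 0.060) did not pass, except without that array (0.30, limma adjusted p = 0.038). It came to 0.048 after quantile normalization and to -0.070 with arrays centred on the chemosensory genes. Of 10 epithelial markers, 4 were higher, 0 lower and 6 did not pass, beside 22.8% of all genes higher. The 4 higher ones lay below background in every array, and 3 of the 10 markers were above background. Mean levels of the list were 5.66 to 5.95 in the double knockout and 5.45 to 5.56 in the ApoE knockout. After quantile normalization 0 of these markers were higher and 1 lower, beside 8.94% and 11.2% of all genes. The part of epithelial cells in the Il17c values was not tested.

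Il17d encodes IL-17D, for which CD93 has been described as a receptor in mice. It was the steadiest of the 10 genes, with 7.67, 7.83, 7.76, 7.76 and 7.72 in the double knockout replicates, against 7.64, 7.62, 7.65, 7.58 and 7.61 in the ApoE knockout replicates. The SD was 0.059 in the double knockout and 0.026 in the ApoE knockout, where the median SD of genes above background was 0.14 and 0.13. The groups did not overlap, but the change of 0.13 (SE 0.06, limma adjusted p = 0.11) did not pass, and it was -0.074 with arrays centred on their median over all probe sets and -0.19 with arrays centred on the chemosensory genes. Cd93 had 9.93 ± 0.32 in the double knockout and 10.01 ± 0.20 in the ApoE knockout (SD, n = 5 each; change -0.080, limma adjusted p = 0.71). The remaining ligand of the family, Il25, which encodes IL-25 or IL-17E, was higher by 0.39 on the log2 scale (5.92 ± 0.23 against 5.53 ± 0.04, SD, n = 5 each; limma adjusted p = 0.015), with an ApoE knockout mean below background and a change of 0.18 after quantile normalization (adjusted p = 0.23).

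Among the receptors, Il17ra, the shared subunit, had the largest change and the only one downward by more than 0.1. Its values were 7.58, 8.00, 7.53, 7.54 and 7.59 in the double knockout replicates, against 7.96, 8.43, 8.03, 7.85 and 7.76 in the ApoE knockout replicates. Of the double knockout aortas 4 lay below every ApoE knockout aorta, and replicate 2 lay within their range. The mean was 7.65 ± 0.20 in the double knockout and 8.01 ± 0.26 in the ApoE knockout (SD, n = 5 each), a change of -0.36 (SE 0.13, 95% interval -0.65 to -0.068, limma adjusted p = 0.060) that missed the threshold. With the replicate number added as a block it passed (limma adjusted p = 0.014), but the labels do not say that these numbers pair the samples. The change passed without double knockout replicate 2 (-0.45, limma adjusted p = 0.021) and without ApoE knockout replicate 5 (-0.42, limma adjusted p = 0.040). These were the only 2 passes with 1 array left out, where changes ran from -0.45 to -0.25. Without ApoE knockout replicate 2 it was smallest (-0.25, limma adjusted p = 0.12). The direction of Il17ra held in all 13 alternatives, with changes from -0.68 to -0.36 and adjusted p from 0.0086 to 0.064, and 6 of them passed. Changing only the filter on dim genes, the probe set, the eBayes prior or the block left the change at -0.36, so these do not test its direction. The passes include each way of centring, which lowers the change of every gene alike.

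Across the aortas, the order of Il17ra ran with macrophage markers and against smooth muscle markers in some replicates. In the ApoE knockout, replicates 2, 3, 1, 4 and 5, from high to low in Il17ra, had mean levels of macrophage markers of 10.03, 9.98, 9.80, 9.72 and 9.61, the same order. In the double knockout, replicate 2 was highest in both (10.17 for the macrophage markers) and replicate 3 lowest in both (9.32). Other lists shared parts of this order. Endothelial markers were highest in replicate 2 of both groups, at 10.35 in the double knockout and 10.49 in the ApoE knockout. They were lowest in replicate 1 of each group. Red cell markers were highest in the same arrays (7.34 and 10.41), and lowest in double knockout replicate 4 and ApoE knockout replicate 1. B cell and mesothelial markers were also highest in double knockout replicate 2 (6.51 and 7.40) and lowest in replicate 3 (5.99 and 6.20). In the ApoE knockout they were highest in replicates 1 and 3 instead (7.62 and 6.51). T cell markers were also highest in ApoE knockout replicate 2 (8.47) and lowest in replicate 5 (6.49), but highest in double knockout replicate 1 (7.02). Replicate 2 also had the lowest mean level of smooth muscle markers in each group, 11.26 in the double knockout and 10.78 in the ApoE knockout. Between the groups, 3 of 9 smooth muscle markers were higher and 0 of 10 macrophage markers passed by limma, also 0 at an unadjusted p under 0.05. T cell markers were lower in 5 of 10, B cell markers in 4 of 7 and neutrophil markers in 6 of 8, beside 7.53% of all genes lower. The 3 of 9 smooth muscle markers stand beside 22.8% of all genes higher. Mean levels were 5.95 to 7.02 in the double knockout and 6.49 to 8.47 in the ApoE knockout for T cells, 5.99 to 6.51 and 7.003 to 7.62 for B cells, and 5.72 to 6.07 and 6.40 to 7.84 for neutrophils. The part of these cells in the Il17ra values was not tested, and in whole aorta fewer cells of a type and less RNA per cell cannot be told apart.

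**Figure D3:**
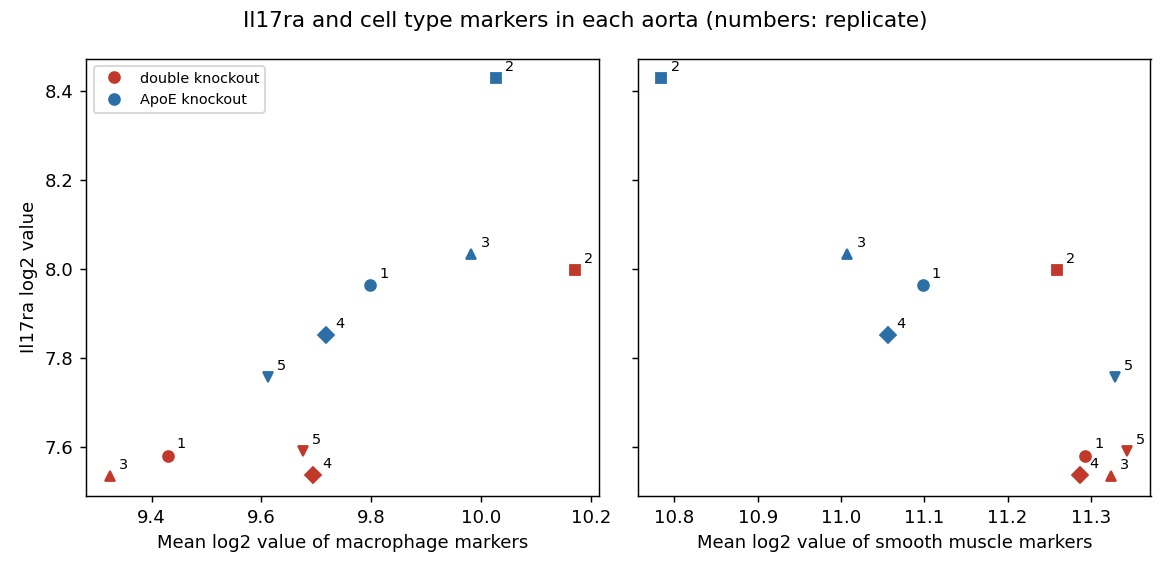
Il17ra log2 value in each aorta against the mean log2 value of 10 macrophage markers (left) and 9 smooth muscle markers (right), double knockout in red and ApoE knockout in blue, numbered by replicate. Replicate 2 is highest in Il17ra and macrophage markers and lowest in smooth muscle markers in both groups.

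Il17rc, the partner of IL-17RA for IL-17A and IL-17F, stood far above background and showed no change that passed. It had 8.09, 8.28, 8.23, 7.94 and 8.34 in the double knockout replicates, against 8.15, 7.96, 8.10, 8.07 and 8.47 in the ApoE knockout replicates. The groups overlapped almost fully, and the change was 0.025 (SE 0.11, 95% interval -0.21 to 0.26, limma adjusted p = 0.88). The sign turned to -0.029, -0.18 or -0.29 with arrays centred on named genes, on all probe sets or on the chemosensory genes.

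Il17rd encodes IL-17RD, also known as Sef, which can associate with IL-17RA and inhibits fibroblast growth factor signaling. It had 6.95, 7.14, 7.52, 7.29 and 7.42 in the double knockout replicates, against 6.87, 7.18, 7.08, 6.89 and 7.40 in the ApoE knockout replicates. The groups overlapped, and the change of 0.18 (SE 0.13, 95% interval -0.10 to 0.47, limma adjusted p = 0.30) did not pass. It was -0.023 with arrays centred on their median over all probe sets and -0.14 with arrays centred on the chemosensory genes.

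Il17rb encodes the receptor subunit for IL-25 and IL-17B. It had 5.73, 5.38, 5.40, 5.59 and 5.42 in the double knockout replicates, against 5.28, 5.77, 6.04, 5.69 and 5.22 in the ApoE knockout replicates. Replicate 3 of the ApoE knockout was the only array above background, and the SD of 0.35 in the ApoE knockout was the widest of any member in either group. The change was -0.096 (SE 0.15, 95% interval -0.43 to 0.24, limma adjusted p = 0.65), and 0.015 without ApoE knockout replicate 3.

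Il17re encodes the subunit that binds IL-17C, and it neighbors Il17rc on chromosome 6, with 0 protein-coding genes between them. It had 5.53, 5.31, 5.59, 5.45 and 5.25 in the double knockout replicates, against 5.65, 5.32, 5.57, 5.63 and 5.25 in the ApoE knockout replicates. All 10 values were below background and the groups overlapped (change -0.056, SE 0.10, limma adjusted p = 0.70). After quantile normalization it was lower by -0.29 (adjusted p = 0.046), the lowest adjusted p in a range of 0.046 to 0.72 over 11 alternatives.

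**Figure D4:**
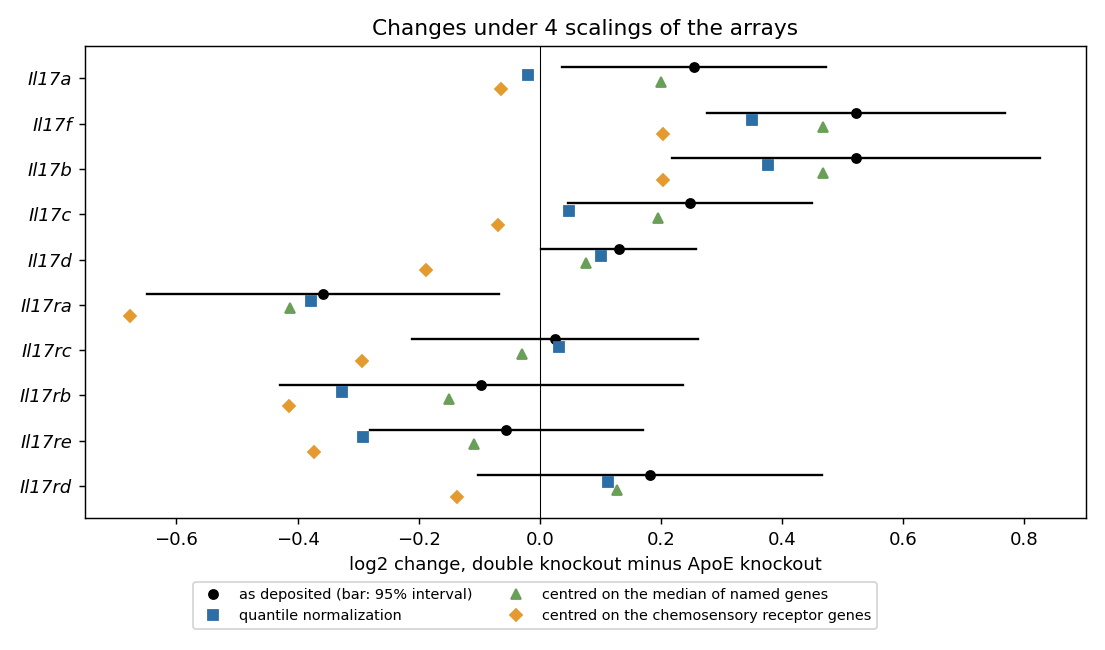
Log2 changes of the 10 genes, double knockout minus ApoE knockout, as deposited (black, with 95% intervals), after quantile normalization (blue), and with arrays centred on the median of named genes (green) or of chemosensory genes (orange). Il17f and Il17b stay right of 0 and Il17ra left of 0 in all 4, while Il17a, Il17c, Il17d, Il17rc and Il17rd take both signs.

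The choice of scaling moved the whole table as well as these genes. Over all genes, 5050 were higher and 1671 lower as deposited, and 1982 (8.94%) higher and 2478 (11.2%) lower after quantile normalization. With arrays centred on the median of named genes, 3581 (16.1%) were higher and 2296 (10.4%) lower. Centring on the median of all probe sets gave 1669 (7.52%) higher and 5641 (25.4%) lower, and centring on the chemosensory genes gave 485 (2.19%) and 5028 (22.7%). Of the 10 IL-17 genes, 2 were higher and 0 lower as deposited, 0 and 1 after quantile normalization, 2 and 1 with the named genes, 1 and 1 with all probe sets, and 0 and 1 with the chemosensory genes. The gene lower under the 3 ways of centring was Il17ra.

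Calls among genes that act below the IL-17 receptors depended on the scaling. Of 23 measured signaling genes, all above background, 3 were lower and 0 higher by limma, beside 7.53% and 22.8% of all genes, and at an unadjusted p under 0.05 6 were lower and 1 higher. The shares of all genes at the unadjusted threshold were not counted. With arrays centred on their median over all probe sets 12 were lower, beside 25.4% of all genes. With arrays centred on the chemosensory genes 8 were lower, beside 22.7% of all genes. As deposited, their median change was -0.065, beside 0.0023 for the 12897 genes with both means above background and 0.098 for all genes. Traf3ip2, which encodes the adaptor Act1, had 7.42 ± 0.18 in the double knockout and 7.42 ± 0.10 in the ApoE knockout (SD, n = 5 each; change -0.0064, SE 0.09, limma adjusted p = 0.96).

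Tab3 and Tab2 encode adaptors of the kinase TAK1, which links TRAF6 to NF-kappaB and MAP kinases. Tab3 had 7.85, 7.73, 7.67, 7.68 and 7.87 in the double knockout replicates, against 8.39, 8.71, 8.29, 8.43 and 8.33 in the ApoE knockout replicates. The groups lay far apart, and Tab3 was 1.59-fold lower (log2 change -0.67, SE 0.09, limma adjusted p = 0.00054). Tab2 was 1.16-fold lower (9.62 ± 0.09 against 9.84 ± 0.05, SD, n = 5 each; log2 change -0.22, SE 0.07, limma adjusted p = 0.030). The Tab2 call was lost without double knockout replicate 1 or 3 or ApoE knockout replicate 2 or 3 (limma adjusted p of 0.057, 0.062, 0.067 and 0.071) and after quantile normalization (adjusted p = 0.063). It was also lost with the replicate number added as a block (limma adjusted p = 0.055). Usp25, a deubiquitinase that limits IL-17 signaling in mice, was 1.38-fold lower (9.61 ± 0.11 against 10.08 ± 0.10, SD, n = 5 each; log2 change -0.47, SE 0.08, limma adjusted p = 0.0016). Tab3 and Usp25 passed in all 13 alternatives and with any 1 array left out. Red cell markers were lower in 4 of 4 measured, with mean levels of 6.77 to 7.34 in the double knockout and 9.46 to 10.41 in the ApoE knockout, and platelet markers in 5 of 5. Their part in these values was not tested.

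**Figure D5:**
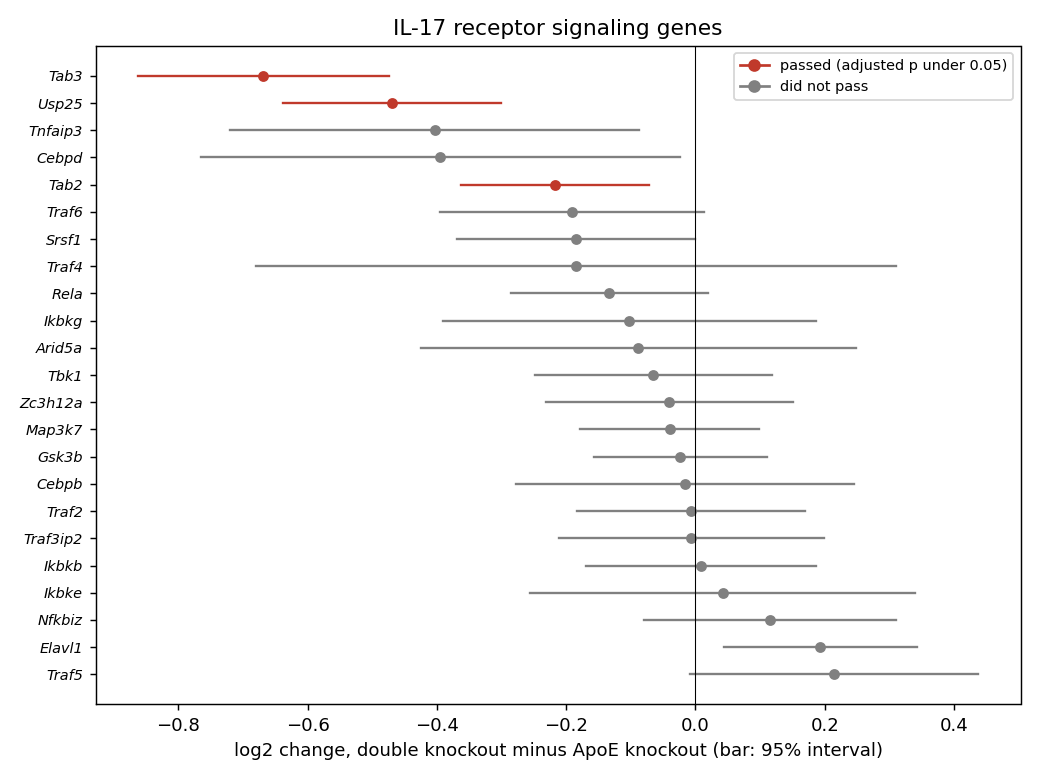
Log2 changes, double knockout minus ApoE knockout, of the 23 measured IL-17 receptor signaling genes, with 95% intervals. The 3 genes in red, Tab3, Usp25 and Tab2, passed and lie left of 0, and Traf3ip2 lies close to 0.

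Of 13 measured markers of IL-17-producing lymphocytes, 7 were above background, 1 was higher and 1 lower, beside 22.8% and 7.53% of all genes. After quantile normalization 0 were higher and 3 lower, beside 8.94% and 11.2% of all genes. Cd163l1, a marker of gamma delta T cells, was higher by 0.35 on the log2 scale (limma adjusted p = 0.041), with an ApoE knockout mean of 5.76, below background, and its call was lost after quantile normalization. Maf, a transcription factor of these lineages that macrophages also use, was 1.20-fold lower (limma adjusted p = 0.040). The list's mean level was 6.33 to 6.46 in the double knockout and 6.39 to 6.52 in the ApoE knockout.

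For the 7 members above background, the genes of most similar pattern were sought among 12001 others, by Pearson r of deviations from the group means over the 10 arrays. With so many candidates and so few arrays, high values arise readily, and they are given as a description of these arrays. Il17ra was most like Tfrc, the transferrin receptor (r = 0.98), Abca1, the cholesterol efflux transporter (r = 0.98), and Mpp1, a membrane scaffold of red cells (r = 0.96). Tfrc and Mpp1 were lower in the double knockout (log2 changes -0.92 and -0.93, limma adjusted p = 0.0017 and 0.00031), and Abca1 did not pass (-0.088, limma adjusted p = 0.72). Il17f was most like Rps7, Prdm1 and Vill (r = 0.95, 0.91 and 0.91), and Il17b most like Tmem107, Ism1 and Radil (r = 0.97, 0.93 and 0.92). Il17rc was most like Stx4a, Bcar3 and Col18a1 (r = 0.96, 0.95 and 0.95), Il17rd most like Rapgef1, Norad and Colec12 (r = 0.94, 0.92 and 0.92), Il17d most like Zfp101, Micu2 and Cul2 (r = 0.94, 0.92 and 0.92), and Il17c most like H2ac1, Atxn10 and Kat2a (r = 0.91, 0.91 and 0.88).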

How the data were processed

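Per the labels' protocols, aortas of 10 mice were hybridised to Affymetrix Mouse Gene 2.0 ST arrays, and samples were grouped by title. For each array the authors deposited 1 log2 value per probe set, the base being inferred from the range of the values. The sources used here do not say how background was corrected or how probes were normalized and summarized. Limma was used, per the submitters' processing notes, with no version or role.

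Of 41345 probe sets, 23521 had 1 symbol in the platform annotation, 1814 had more than 1 and were left unnamed, and 16010 have no symbol here. Symbols were checked by gene identifier against GRCm38.p6. The probe set with the highest mean stood for a gene, which left 22180 genes, with no filter. Limma 3.58.1 (R 4.3.3) was fitted to all of them on group alone, and two-sided p-values from eBayes were adjusted by the Benjamini-Hochberg method, with 0.05 as threshold. Code was tested on simulated data, in which 48 of 100 genes given a log2 change of 0.5 passed, and 89 of 100 given 1. Far fewer genes were changed there than were called in the aortas, so these shares need not carry over. A gene that did not pass may still differ between the groups. Array measures were compared by an exact permutation test over 252 assignments. Upstream sequences are from RefSeq, and figures were drawn with matplotlib 3.10.9.

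The members and lists were chosen with earlier results of these data known. Named genes are the 10 members, Il25, Cd93, Traf3ip2, signaling genes that passed, up to 2 markers per list and the 3 genes most like each member above background, leaving out predicted genes, clones and antisense genes. The labels do not say whether the animals are littermates or were processed together. Alternatives changed the scaling, the filter on dim genes, the choice of probe set, the eBayes prior and the weights of arrays, added the replicate number as a block, or left out each array. Centring on named genes, and leaving out arrays for the array measures, were added after the data were seen.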

Additional observations from a re-analysis of the deposited data

Results flagged for a closer look

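In 2 of 40 groups of 5 values examined, 1 array stood apart from the other 4 by more than Dixon's critical value of 0.71 for the gap over the range, and chance alone flags about 1 in 20. Il17b was 5.73 in ApoE knockout replicate 2, where the nearest of the other ApoE knockout arrays was at 6.27 (ratio 0.75). Il17ra was 8.00 in double knockout replicate 2, where the nearest of the other double knockout arrays was at 7.59 (ratio 0.88).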

How the results depend on the processing

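Il17f, Il17b and Il17ra kept their direction under every alternative run, but the calls of the family depended on the scaling of the arrays, and the cause was not tested. Changing only the filter, the probe set, the eBayes prior or the block left these changes as they were, so such alternatives do not test direction. As given above, the members called were 2 higher and 0 lower. The count of higher members was 0 after quantile normalization, 1 when dim genes were left out as well, 1 with centring on the median of all probe sets and 0 on the chemosensory genes, and the count of lower members was 1 in each of these 4, with centring on named genes, with array weights and with the replicate block. Without 1 array it ran from 2 to 3 higher and from 0 to 1 lower. Il17a reversed to -0.019 (quantile) and -0.064 (chemosensory), Il17c to -0.070 (chemosensory), Il17d to -0.074 and -0.19, Il17rc to -0.18 and -0.29, and Il17rd to -0.023 and -0.14 (all probe sets and chemosensory), and Il17rc to -0.029 (named genes). Traf3ip2 turned to 0.015 with array weights. Without 1 array, Il17rb ran from -0.19 to 0.015, Il17rc from -0.024 to 0.11 and Traf3ip2 from -0.080 to 0.038.

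Over all genes, those higher numbered 1982 (quantile), 1669 (all probe sets), 485 (chemosensory), 2003 (dim genes left out) and 1489 (both quantile and filter), and those lower 5641 (all probe sets) and 5028 (chemosensory). In the same order, chemosensory genes called higher were 135, 191, 110, 27 and 13, and those called lower 52, 47, 89, 0 and 0. As deposited these counts were 425 and 12, and 7 to 14 were lower without 1 array. Leaving out dim genes removes most chemosensory genes, because background was set near the top of their levels. Counts with dim genes left out, here and over all genes, are of fewer genes. A smaller count there is not by itself a smaller share of the genes tested. Signaling genes lower were 12 (all probe sets) and 8 (chemosensory), beside 25.4% and 22.7% of all genes, and 2 to 5 without 1 array. The count higher was 1 with quantile normalization, the filter, both, several symbols kept, a trend in the prior and array weights, and 0 to 1 without 1 array. Members above background were 4 with the 99th percentile, with keratin-associated and defensin genes, and with every array required, and 6 to 7 without 1 array. The difference in upper quartiles was 0.028 to 0.046 without 1 array and passed once (exact permutation p = 0.048 without double knockout replicate 1).

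The labels do not say that replicate numbers pair the samples, and the data leave it unsettled: same-numbered arrays had correlations of deviations from -0.13 to 0.26, 3 of 5 over 0.1, and 3 of 5 correlated best with their own number. With the replicate block, Il17ra had the same change of -0.36 with adjusted p = 0.014, and Tab2 lost its call (adjusted p = 0.055). Genes at background carry little information on a change in either direction.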
